A study of Homo sapiens with 40 samples.

Results

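SRSF3 (ENSG00000112081; also known as SRp20) was followed through every deposited splicing comparison of cells running on wild-type or mutant RNA polymerase II. Its rows were found by the gene's Ensembl identifier. The gene was chosen by its measured change, a rise of its poison exon in all 5 exon comparisons that was known beforehand, so its own values are given as a description and not as a test. SRSF3 is 1 of 6976 gene identifiers in the exon tables and has 1 of the 16378 exon events, which fills 5 of the 35638 rows, 1 in each table. No other SRSF3 exon had a row. Of the 2699 introns listed in the 2 intron tables, 0 lay within a gene length (11239 nt in RefSeq, GRCh38.p14) of the exon on its strand, and the nearest one was 369321 nt away, so retention of SRSF3 introns is not analysed here.

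SRSF3 is the smallest of the SR proteins, splicing factors that bind exons through an RNA recognition motif and recruit the splicing machinery through a domain rich in arginine and serine. The gene carries a poison exon, a cassette exon with an in-frame stop codon. Skipping it gives the mRNA of the full protein, and including it gives an mRNA that nonsense-mediated decay can remove. SRSF3 protein is known to promote inclusion of this exon in its own pre-mRNA, a negative feedback that several SR genes share.

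All cells were HEK293 Flp-in T-REx, a human embryonic kidney line with a fixed integration site and a doxycycline-inducible promoter. Each line carried an α-amanitin-resistant (Amr) Rpb1, the large subunit of RNA polymerase II, as WT or with the substitution R749H, H1106Y or E1126G. WT and mutant cells alike were induced with doxycycline for 12 to 16 h and then kept in α-amanitin, which blocks the cells' own polymerase, for 42 h. R749H and H1106Y are known as slow and E1126G as a fast form, and the study asked how splicing responds to elongation rate. WT, R749H and E1126G had 2 RNA-seq libraries each. RASL-seq reads out splice junctions picked in advance by ligating 2 probes across each, and it had 3 libraries for each of WT, R749H, H1106Y and E1126G. The labels call RNA-seq replicates biological, and do not say whether a line is 1 clone. The tables hold pooled values with no value per library and unknown depth, so no spread between libraries can be shown. In its place an implied standard error is given, the one a normal test with the deposited p-value would need. The sources used here do not name that test, and the error may not hold the spread between cultures.

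The SRSF3 exon spans chromosome 6, 36567598 to 36568053 on the plus strand (GRCh37, per the submitters' processing notes), and is 456 nt long. That is 152 codons, so its length alone keeps the reading frame. It lies between an upstream intron of 837 nt and a downstream intron of 875 nt. The exon is long and its introns are short beside other tested events. In the R749H RNA-seq table the median exon had 108 nt and 97.8% of events had a shorter exon, while the median upstream and downstream introns had 1934 and 1875 nt. A shorter distance between the flanking exons was found in 25.4% of events there, and in 14.6% in the R749H RASL-seq comparison.

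In RNA-seq the exon was mostly skipped in WT cells and mostly included in R749H cells. Computed from the authors' deposited tables, inclusion was 10.4% in WT, 48.5% in E1126G and 83.7% in R749H. These levels use the ratio as deposited, and with the ratio halved, as for 2 inclusion junctions against 1, they were 5.48%, 32.0% and 72.0%. The skipped form, which encodes the full protein, made up, with the ratio as deposited, 89.6% in WT, 51.5% in E1126G and 16.3% in R749H. The log2 change of the ratio of inclusion to exclusion in the authors' deposited table was 5.47 in R749H (implied SE 0.31, 95% interval 4.87 to 6.07), a 44.3-fold higher ratio. In E1126G it was 3.02 in the authors' deposited table (implied SE 0.28, 2.48 to 3.57), an 8.14-fold higher ratio. R749H exceeded E1126G by 2.44 on the log2 scale (1.63 to 3.26), with the comparisons treated as independent although they share the WT libraries.

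On RASL-seq the same exon was higher than in WT in all 3 mutants, and the slow H1106Y stood apart with almost complete inclusion. Computed from the authors' deposited tables, inclusion was 37.7% in WT, 67.6% in R749H, 72.2% in E1126G and 95.7% in H1106Y. With the ratio halved it was 23.2%, 51.0%, 56.5% and 91.7%, a reading that holds only if 2 inclusion junctions were counted. That was not established for RASL-seq. The skipped form fell from 62.3% in WT to 4.32% in H1106Y, against 32.4% in R749H and 27.8% in E1126G. The log2 change in the authors' deposited table was 5.19 in H1106Y (implied SE 0.20, 4.81 to 5.58), which is a 36.6-fold higher ratio. It was 2.11 in E1126G (implied SE 0.11, 1.90 to 2.32) and 1.79 in R749H (implied SE 0.31, 1.18 to 2.39) in the authors' deposited tables. H1106Y exceeded E1126G by 3.09 (2.65 to 3.53), and R749H minus H1106Y was -3.41 (-4.12 to -2.69). R749H and E1126G were neighbours whose difference, -0.32 for R749H minus E1126G, had an interval of -0.96 to 0.32 and so lay within the implied error. That interval does not show that they act alike.

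**Figure D1:**
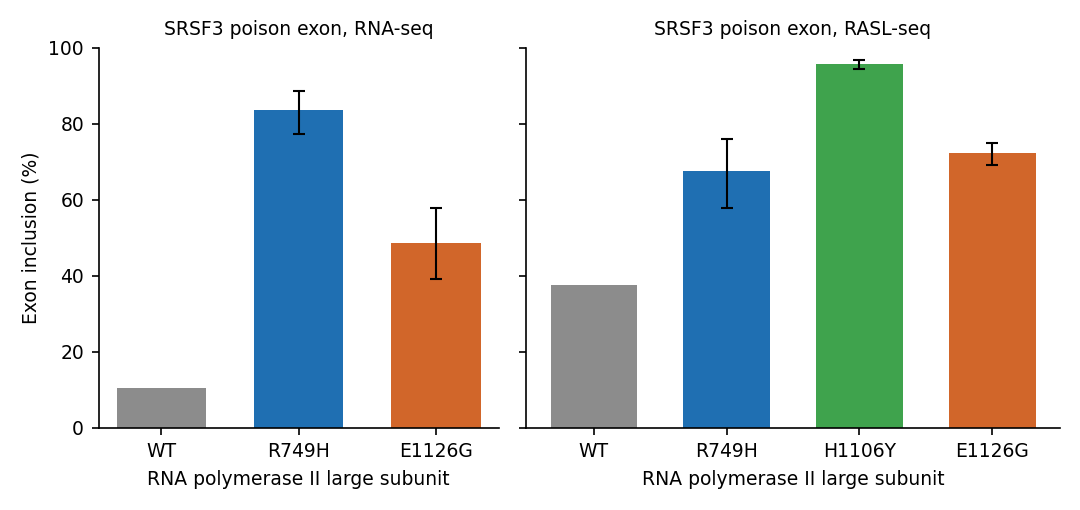
Inclusion of the SRSF3 exon in percent (vertical axis) by the RNA polymerase II large subunit (horizontal axis), in RNA-seq on the left and RASL-seq on the right. Bars are pooled levels computed from the deposited tables, and error bars on mutants are the 95% intervals implied by the deposited p-values with the WT level held fixed. R749H is highest in RNA-seq (83.7%) and lowest of the 3 mutants on RASL-seq (67.6%), where H1106Y reaches 95.7%.

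Of the 2 mutants measured by both assays, RNA-seq placed R749H far above E1126G, and RASL-seq gave no order beyond the implied error. For R749H the log2 change was 3.68 larger in RNA-seq than on RASL-seq (2.83 to 4.53), and this gap was larger in size than that of 99.4% of the 1648 events in both R749H tables. For E1126G the gap was 0.92 (0.33 to 1.50), larger than in 66.9% of 1674 shared events. The WT level also differed, by -27.3 percentage points for RNA-seq minus RASL-seq, a gap larger in size than in 72.2% of the events of both R749H tables. Levels were therefore compared within an assay. Whether probes, libraries or cultures account for the R749H gap was not tested.

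SRSF3 was called as higher in 5 of the 5 exon tables, where 7.07% (R749H RNA-seq), 2.20% (E1126G RNA-seq), 24.0% (R749H RASL-seq), 23.7% (H1106Y RASL-seq) and 13.9% (E1126G RASL-seq) of all events were called as higher. These calls chose the gene and support nothing further. By log2 change the exon ranked 13 of 14358 events in R749H RNA-seq and 100 of 14650 in E1126G RNA-seq. On RASL-seq it ranked 6 of 2070 in H1106Y, 53 of 2312 in E1126G and 166 of 2248 in R749H. By percentage points it ranked 4 and 52 in the RNA-seq tables, and 5, 12 and 34 on RASL-seq in the same order of mutants. The R749H RASL-seq change of 1.79 lay below the 95% quantile of all events in that table (2.11), while the other 4 changes lay above theirs (2.43, 1.90, 2.71 and 1.39). All events had a median log2 change of -0.33 in H1106Y and -0.37 in E1126G on RASL-seq, and relative to these medians the SRSF3 changes were 5.52 and 2.48. Beside other events of the same comparison, the implied error of SRSF3 was small for RNA-seq. There 2.21% and 1.22% of events (those with a p under 0.5) had a smaller one in R749H and E1126G. On RASL-seq this share was 43.8% in R749H, 17.1% in H1106Y and 5.60% in E1126G. The share ranks an error within its own comparison only. For R749H the SRSF3 error was 0.31 in both assays, while the median error of these events was 0.77 in RNA-seq and 0.34 on RASL-seq.

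**Figure D2:**
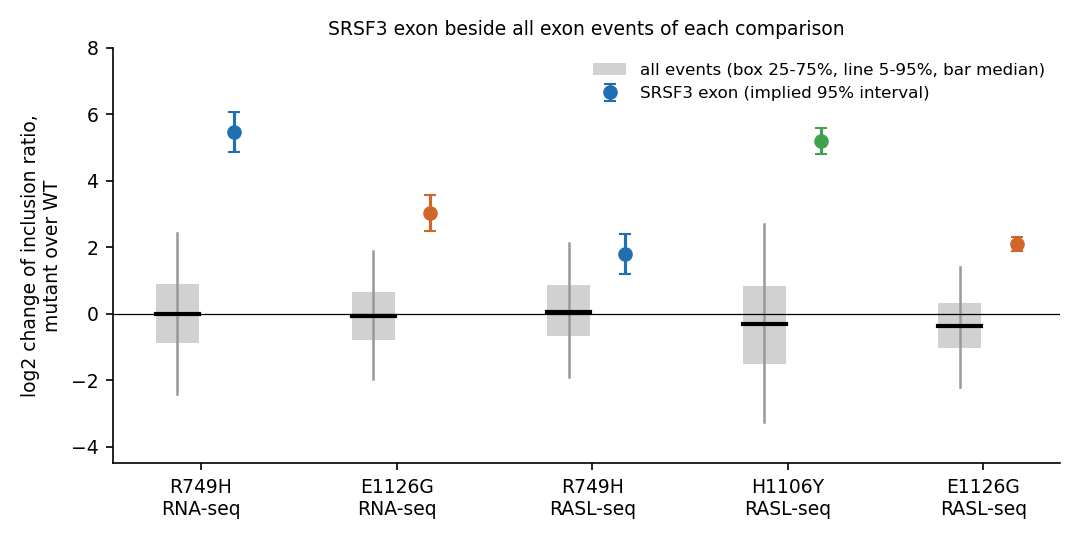
Log2 change of the inclusion ratio, mutant over WT (vertical axis), in each of the 5 exon comparisons (horizontal axis). Coloured points are the SRSF3 exon with its implied 95% interval, and grey boxes and lines show the middle 50% and 90% of all events with the median as a black bar. SRSF3 lies above the grey line in 4 comparisons and within it in R749H RASL-seq (1.79).

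The SRSF3 exon combines a great length with a low WT inclusion, and it was set beside events of that kind. In R749H RNA-seq 573 events had an exon of at least 300 nt, 62 of them called as higher and 25 as lower, where 7.07% of all events were higher and 8.04% lower, and their median log2 change was 0.27 against -0.0048 for all events. Among these, 2 exceeded SRSF3. Of the 122 long exons with WT inclusion under 25%, 15 were called as higher, 2 as lower, and none exceeded SRSF3, whose 5.47 was the top value. In E1126G RNA-seq 23 of 588 long exons were called as higher and 18 as lower (2.20% and 4.27% of all events), with a median of 0.11, and 7 of them exceeded SRSF3. Among the 115 that were mostly skipped in WT, 5 were called as higher and 1 as lower, and SRSF3 had the top value. On RASL-seq, where the WT level of SRSF3 is over 25%, the long exons alone were counted. In H1106Y 33 of 97 were called as higher and 27 as lower (23.7% and 38.2% of all events), with SRSF3 the top value. In R749H 40 of 107 were higher and 13 lower (24.0% and 20.1% of all events), with 14 above SRSF3. In E1126G 28 of 110 were higher and 29 lower (13.9% and 33.6% of all events), with 4 above SRSF3. Medians of the long exons on RASL-seq were 0.33 in R749H, 0.21 in H1106Y and -0.11 in E1126G, against 0.05, -0.33 and -0.37 for all events. SRSF3 is itself one of each of these sets.

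**Figure D3:**
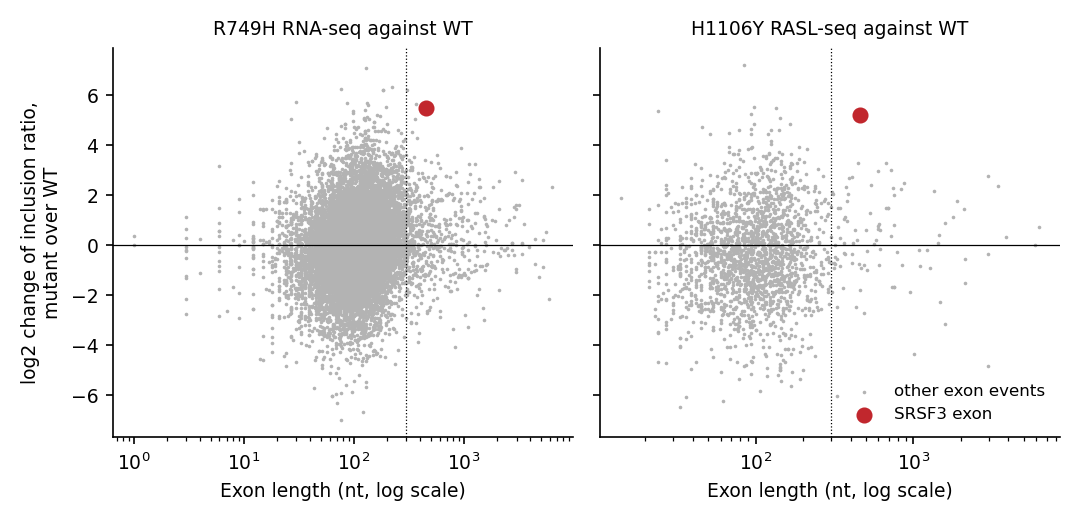
Log2 change of the inclusion ratio (vertical axis) against exon length in nt (horizontal axis, log scale) for all events of R749H RNA-seq on the left and H1106Y RASL-seq on the right. Each grey point is 1 exon event, the red point is SRSF3, and the dotted line marks 300 nt. SRSF3 lies near the top of the long exons in both panels, with 2 and 0 events above it to the right of the line.

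Exons of other genes with the closest profile were sought among the 1430 events present in all 5 tables, by the Euclidean distance of the 5 log2 changes to those of SRSF3. Changes of an assay share their WT libraries, so the distance is a description. The median event lay 9.32 away. The closest was a 68-nt exon of DIS3, an exosome nuclease, at 2.03 (chromosome 13, 73355427 to 73355494, minus strand). Its log2 changes in the authors' deposited tables were 4.26 (R749H) and 1.68 (E1126G) in RNA-seq and 2.21 (R749H), 4.47 (H1106Y) and 1.71 (E1126G) on RASL-seq. It was called in all tables but E1126G RNA-seq. A 126-nt exon of RFC5, a subunit of the replication clamp loader, followed at 2.50 (chromosome 12, 118455495 to 118455620, plus strand). It was called as higher in all 5, as was a 152-nt exon of POMT1, a protein O-mannosyltransferase, at 2.73. Of the 1430 events, 20 were called as higher in all 5. In E1126G RNA-seq the POMT1 call and the missed DIS3 call were both borderline (Benjamini-Hochberg adjusted p 0.043 and 0.0502). A 164-nt exon of CCNT1, cyclin T1 of the P-TEFb kinase, at 2.86, and a 107-nt exon of HNRNPD, an hnRNP that binds AU-rich RNA, at 2.88 completed the 5. The HNRNPD exon was called in all 5 tables and CCNT1 in 4, not in E1126G RNA-seq (log2 change 1.41 in the authors' deposited table). In R749H RASL-seq SRSF3 had a lower log2 change than each of these 5, which ran from 2.12 to 2.49, while in R749H RNA-seq it had a higher one than each (3.49 to 4.26).

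The 13 other SR genes listed for this comparison hold poison exons of the same type in several cases. In R749H RNA-seq 5 of the 8 tested genes had an event called as higher, SRSF2, SRSF6, SRSF7, TRA2A and TRA2B, and SRSF11 had a lower one, where 12.5% of all genes had a higher and 14.8% a lower event. The median log2 change of their 25 events was 1.06 against -0.0048 for all events, and in E1126G RNA-seq that of their 28 events was 0.28 against -0.08. In E1126G RNA-seq SRSF6, TRA2A and TRA2B of 8 tested genes had higher and SRSF10 and SRSF11 lower events, against 4.38% and 7.86% of all genes. On RASL-seq SRSF2, SRSF7, TRA2A and TRA2B of 5 tested genes had higher events in each mutant, and TRA2A had a lower one too in H1106Y. The median of their 11 events was 0.57 in R749H, -0.07 in H1106Y and 0.69 in E1126G, against 0.05, -0.33 and -0.37 for all events. The shares of all genes with higher and lower events were 27.7% and 23.6% in R749H, 26.8% and 42.8% in H1106Y and 15.7% and 38.6% in E1126G. No SR event exceeded SRSF3 in R749H RNA-seq, where the largest was that of SRSF7 at 2.57, nor in H1106Y (TRA2A, 3.84) or E1126G on RASL-seq (TRA2B, 1.54). In E1126G RNA-seq 2 SR events exceeded it, with SRSF6 at 3.73 the largest, and in R749H RASL-seq 3 did, with SRSF2 at 2.06 the largest.

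The SR exon nearest to SRSF3's in build was the 449-nt exon of SRSF7, whose protein is the closest relative of SRSF3 in the family (chromosome 2, 38976040 to 38976488, minus strand). Computed from the authors' deposited tables it rose in R749H RNA-seq from 25.3% to 66.8%, and stood at 33.9% in E1126G, where it was not called. On RASL-seq it rose from 22.5% to 51.3% in R749H, 73.9% in H1106Y and 31.9% in E1126G. SRSF3 and SRSF7 thus had similar log2 changes in R749H RASL-seq (1.79 and 1.86), and those of SRSF3 were larger in the other tables. A 276-nt exon of TRA2B, a splicing activator with 2 such domains rich in arginine and serine, rose in RNA-seq from 27.8% to 58.9% in R749H and 63.8% in E1126G. On RASL-seq it rose from 80.2% to 90.0% in R749H, 89.1% in H1106Y and 92.2% in E1126G. A 312-nt exon of TRA2A, its paralogue, rose from 37.9% to 58.8% in R749H and 83.3% in E1126G in RNA-seq. On RASL-seq the TRA2A exon went from 81.9% to 90.8% in E1126G, fell to 73.6% in H1106Y and stood at 81.6%, not called, in R749H.

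**Figure D4:**
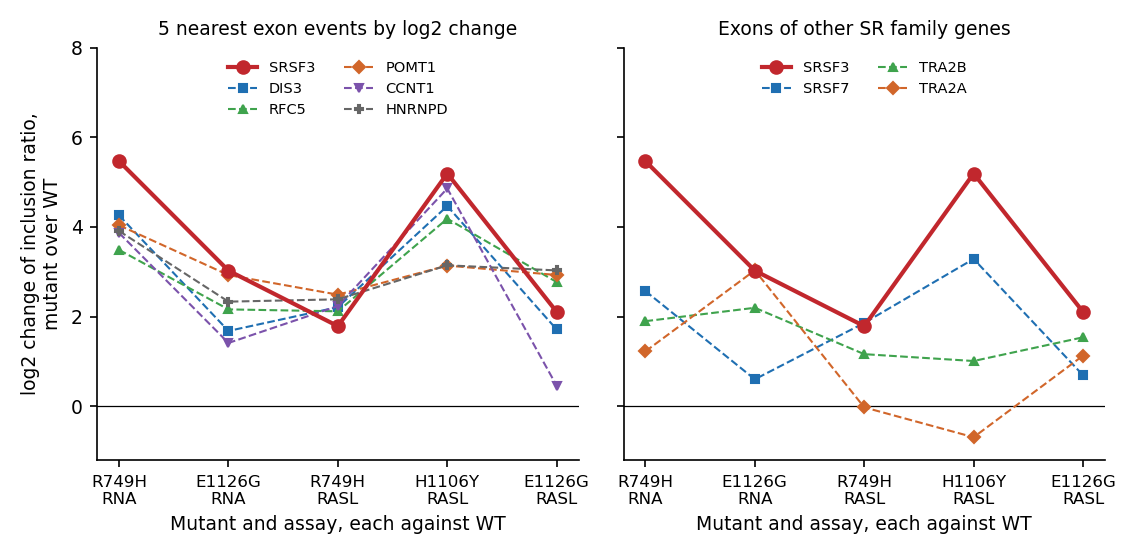
Log2 change of the inclusion ratio, mutant over WT (vertical axis), over the 5 comparisons (horizontal axis), for SRSF3 in red with the 5 closest events on the left and with exons of SRSF7, TRA2B and TRA2A on the right. Lines only join the points of 1 exon. SRSF3, the 5 closest events and the SRSF7 exon have their highest value of each assay in R749H RNA-seq and H1106Y RASL-seq. The plotted 312-nt TRA2A exon and 276-nt TRA2B exon have theirs in E1126G in both assays. Another TRA2A event, not plotted, reached 3.84 in H1106Y RASL-seq.

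Genes of nonsense-mediated decay, the pathway that removes the SRSF3 transcript with the poison exon, had called events in both directions. In RNA-seq MAGOH, UPF3A and UPF3B had lower events in R749H, of 9 tested genes (14.8% of all genes had one), and in E1126G, of 10 tested (7.86% of all genes). MAGOHB had a higher event in E1126G (4.38% of all genes). MAGOH and MAGOHB encode near-identical proteins. Whether reads were split between the genes was not tested, so their calls are uncertain. On RASL-seq 2, 2 and 1 of 5 tested genes had higher and 2, 3 and 4 had lower events in R749H, H1106Y and E1126G. Over all genes 27.7%, 26.8% and 15.7% had higher and 23.6%, 42.8% and 38.6% lower events there, and with 5 genes most of these counts lie near those shares. Exons of UPF3B, which joins the decay factors to the exon junction complex, fell in all 5 tables. Its 39-nt and 91-nt versions share an end and have identical RASL-seq levels. The 91-nt version fell in RNA-seq from 53.7% to 17.5% in R749H and 13.5% in E1126G, computed from the authors' deposited tables. The RASL-seq level, which does not tell the versions apart, fell from 68.1% to 41.6% in R749H, 14.6% in H1106Y and 22.7% in E1126G. The tables give no expression level, so whether decay of the SRSF3 transcript differed between the lines was not tested.

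Genes known to be spliced under the influence of SRSF3 were too few in the tables to set apart from other genes. In R749H RNA-seq 0 of 6 tested genes were called after Benjamini-Hochberg adjustment, and 1 had an event with an unadjusted p under 0.05. The other 4 tables had 1 called gene each, among 6 tested in E1126G RNA-seq and 3, 2 and 4 in R749H, H1106Y and E1126G on RASL-seq. Over all genes 4.38% had higher and 7.86% lower events in E1126G RNA-seq, and on RASL-seq 15.7% to 27.7% had higher and 23.6% to 42.8% lower ones, so these counts are no result about the list.

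The values describe the share of 2 SRSF3 isoforms in steady-state poly(A)+ RNA. No table gives the amount of SRSF3 mRNA or protein, so the level of the transcript that encodes the protein is not known from these data.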

How the data were processed

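Poly(A)+ RNA was measured by RNA-seq and by RASL-seq, and the GRO-seq libraries were not analysed here. The members, the gene lists and the tests were chosen with earlier results of these data known. The authors' deposited tables hold 1 row per event with 3 values and no value per library. In the authors' deposited tables WT has its ratio of reads with the exon to reads without it on a natural log scale. Each mutant has a deposited log2 change of that ratio, mutant over WT, and a deposited p-value with no adjustment. The sources used here do not name its test. Per the labels' protocols RNA-seq reads were mapped with TopHat 1.4.1, replicate by replicate. The submitters' processing notes name Bowtie 0.12.7, edgeR 3.7.17 and the builds GRCh37 and hg19 without a role. Tables named by a code were read as R749H, since descriptions of R749H samples point to them.

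The bases were settled from the numbers themselves. Read as a natural log, 62.9% to 94.4% of WT values per table came out as quotients of whole numbers (with denominators of at most 300 and a relative tolerance of 1e-09), and read as log2 at most 0.396% did. Read as mutant over WT, 63.5% to 95.2% of mutant values did so, and read the other way 5.36% to 22.5%. Span ends equalled exon starts of other events for 1529 of 12204 spans and were 1 base off for 1 span on either side, so intron lengths are read directly and positions are printed 1-based. Symbols were matched to 6217 of 6332 Ensembl identifiers for R749H RNA-seq.

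Inclusion was computed as 100 times the ratio over 1 plus the ratio. Benjamini-Hochberg adjustment covered the whole of each table, and an event was called at an adjusted p under 0.05 (scipy 1.17.1, Python 3.11.15). The error of a log2 change is the standard error that a two-sided normal test with the deposited p-value would imply, and the 95% interval follows from it. The calculations were tested on simulated data. Named events were every SRSF3 row, up to 3 events per list (those called in the most tables, then by size of change) and the 5 events closest to SRSF3 in log2 change over all 5 exon tables, 1 per gene. Some of the events that this rule names are not reported here. The alternatives are given in the closing section.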

Additional observations from a re-analysis of the deposited data

How the results depend on the processing

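The SRSF3 log2 changes were recomputed with calls at 0.01 and at 0.1, with WT inclusion limited to 5% to 95%, with a minimum change of 10 percentage points and with the direction taken around each table's median. Of these only the centring can move a log2 change, and it gave 1.74 to 5.52 over the 5 comparisons. All 25 calls held, which says nothing of stability because the gene was chosen on these values. Halving the ratio, as for an included exon with 2 junctions to count against 1, moved every level. WT then stood at 5.48% and R749H and E1126G at 72.0% and 32.0% on RNA-seq. On RASL-seq WT stood at 23.2%, R749H at 51.0%, H1106Y at 91.7% and E1126G at 56.5%. Whether RASL-seq counted 2 inclusion junctions was not established, so its halved levels may not apply. The order of the genotypes was that of the reported levels in both assays. Of 30 list counts at the other thresholds 26 stayed within 1.5 times. The genes known as spliced under SRSF3 counted 1 in R749H RNA-seq at 0.1, 0 in E1126G RNA-seq at 0.01 and 2 in E1126G RASL-seq at 0.1, and the decay genes counted 2 in E1126G RNA-seq at 0.01. Of the 5 events closest to SRSF3 in log2 change, 2 (DIS3 and RFC5) were among the closest 5 by percentage points and 0 among the closest 5 by Pearson's correlation, a measure that ignores size. No paired analysis was possible because the deposited tables hold no value per library, and for the same reason no library could be left out. Reading the first value as log2 was not run, since the values settle the base. Depth is unknown, so no interval of a WT level can be given.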
